A study of Mus musculus with 18 samples.

Results

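The genes of glucose entry and of the first committed steps of glycolysis were followed in control hearts and in hearts lacking Kir6.1, which Kcnj8 encodes and which forms the pore of an ATP-sensitive potassium channel. The set held 10 genes: the glucose transporters Slc2a1 and Slc2a4, the hexokinases Hk1 and Hk2, the phosphofructokinase subunits Pfkm, Pfkl and Pfkp, and the bifunctional enzymes Pfkfb2, Pfkfb3 and Pfkfb4. They were found as every probe set on the Affymetrix Mouse Genome array whose platform annotation gave 1 of these symbols and no other, which were 22 of the 45037 probe sets tested, 1 to 4 for a gene. A gene was represented by the brightest of its probe sets, by mean log2 signal on the 18 arrays, and so the 10 genes stand among 18193. The 18 arrays fell into 6 groups of 3: control and mutant hearts taken 3 h after PBS, 30 min after LPS, and 3 h after LPS. LPS, an endotoxin of bacterial walls sensed through Toll-like receptor 4, was given as 0.5 µg in PBS, and PBS hearts were taken at 3 h alone. The mutant is named by its missing channel subunit, and the sources used here state no allele, strain, age or sex. The series text mentions 3 mice of each genotype. Whether every numbered array had its own animal is not stated, and the p-values therefore reflect the spread among arrays, part of which may be technical.

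Cardiac muscle cells take up glucose mainly through GLUT4, encoded by Slc2a4, which insulin and contraction bring to the cell surface, and through GLUT1, encoded by Slc2a1, which serves basal uptake. Hexokinase traps the sugar as glucose phosphate, and phosphofructokinase then commits it to glycolysis. The PFKFB enzymes make and remove a fructose bisphosphate that strongly activates phosphofructokinase, and they are a main point at which hormones, hypoxia and inflammatory stimuli set the glycolytic rate. The adult heart draws most of its energy from fatty acids and raises its use of glucose under workload, insulin or lack of oxygen.

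Pfkfb3 rose 3 h after LPS in both genotypes, by 2.60 on the log2 scale in control hearts and by 2.93 in mutant hearts. It was the 1 of 10 member genes called in control hearts, where limma called 0.775% of all genes at an adjusted p under 0.05 and 0.638% as higher. In mutant hearts 3 of 10 genes were called, against 26% of all genes (9.9% higher and 16.1% lower): Pfkfb3 rose and Pfkfb2 and Hk2 fell, and Hk2 lost its call without 2 arrays hybridized on a day of their own (adjusted p = 0.986). Averaged over the 3 conditions, Pfkp differed between genotypes by 0.47 on the log2 scale on the probe set that stands for it. Its other 2 probe sets differed by -0.28 and -0.04 and were not called. Pfkp was the 1 of 10 members called in this average, against 3.31% of all genes (2.31% higher).

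The arrays were not alike in RNA quality signal, and this touches the LPS 3 h group of the mutants. The experiment files give 3 hybridization days and 7 array lots. The first day held 10 arrays, which were the 6 PBS arrays, the 3 of control LPS 3 h and replicate 2 of mutant LPS 3 h. The second day held the 2 arrays of mutant LPS 3 h replicates 1 and 3, and the third day held all 6 LPS 30 min arrays, in 1 lot of their own. The excess of 3′ over 5′ signal on the array's Gapdh and Actb controls, in log2 units, which is higher where transcripts are shortened, was 1.37 and 1.09 on the second-day arrays and 0.13 to 0.44 on the other 16. Kcnj8, the targeted gene, ran from 8.35 to 8.90 in control hearts and from 4.35 to 5.36 in mutant hearts, so no array went against its genotype label. By their mean over the 18 arrays, all 8 cardiomyocyte markers lay above the median of all probe sets, 4.85. In whole hearts, fewer cells of a type and less RNA per cell cannot be told apart.

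Slc2a1 had 3 probe sets, none of them called 3 h after LPS in control hearts. On 1426599_a_at its log2 signal was 7.08, 7.13 and 7.18 in control hearts after PBS, 7.73, 7.62 and 7.54 at LPS 30 min, and 7.14, 7.21 and 7.41 at LPS 3 h. In mutant hearts it was 7.33, 7.23 and 7.02 after PBS, 7.20, 7.31 and 7.29 at LPS 30 min, and 7.83, 7.26 and 7.84 at LPS 3 h. The control arrays at LPS 30 min were thus all above the control PBS arrays, while the mutant arrays at these conditions overlapped. These control groups did not overlap on 29.1% of all probe sets. The control difference at LPS 30 min was 0.50 ± 0.13 (SE) and missed the threshold (limma adjusted p = 0.222), and these groups were hybridized on different days, so that time, treatment and day cannot be told apart. The mutant difference at LPS 30 min was 0.07, and the difference between genotypes in this response was -0.43 (limma adjusted p = 0.999975). At LPS 3 h in mutant hearts the same probe set rose by 0.45 ± 0.13 (limma adjusted p = 0.0291). That value rests on the second-day arrays, since it was 0.07 (limma adjusted p = 0.809) without them. The probe set that stands for the gene, 1434773_a_at, showed the same split, with 8.36 and 8.10 on the second-day arrays against 6.95 on the first-day array. On 1426600_at the 18 arrays ran from 6.46 to 6.96. The mutant LPS 3 h arrays (6.63 to 6.76) lay just above the mutant PBS arrays (6.51 to 6.59), a difference of 0.14 that was not called. These mutant groups did not overlap on 27.9% of all probe sets.

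**Figure D1:**
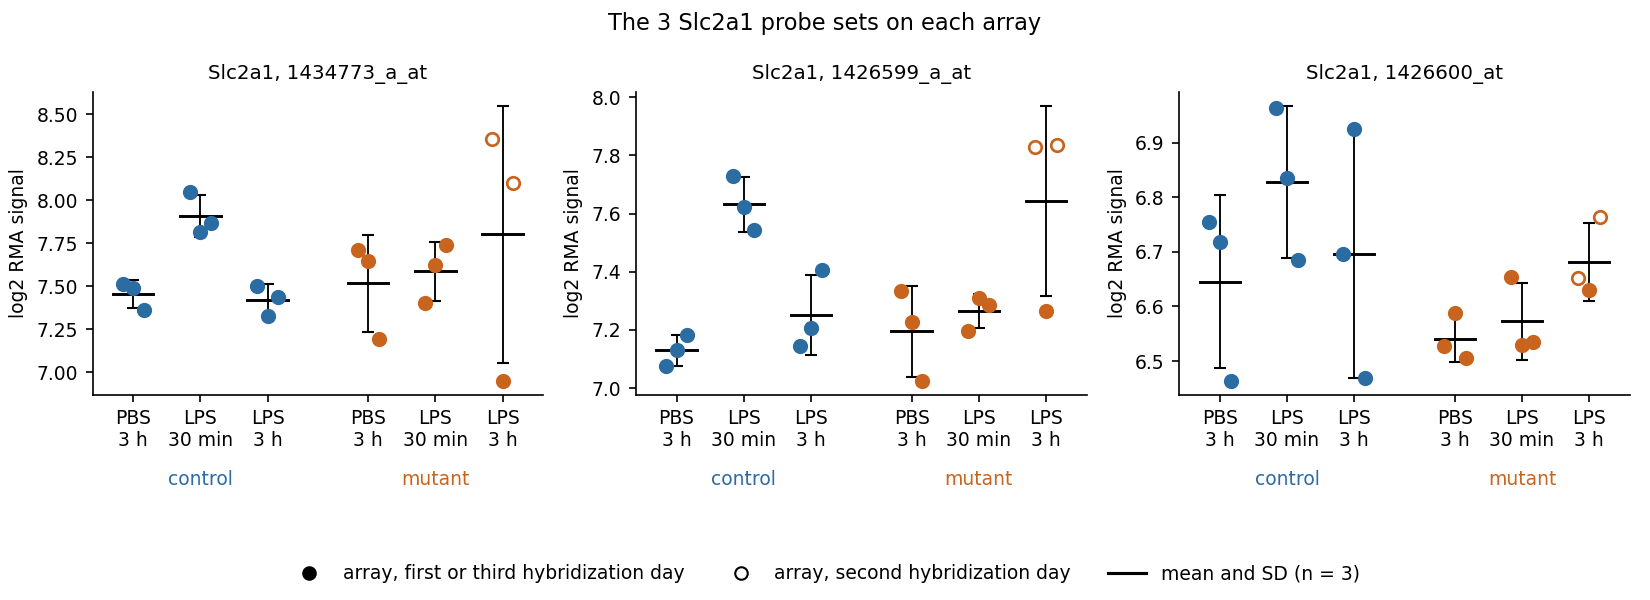
Log2 RMA signal of the 3 Slc2a1 probe sets on each of the 18 arrays, by genotype and condition, with lines for the mean and bars for the SD of 3 arrays; open points are second-day arrays and the vertical scale differs between panels. On 1426599_a_at the control arrays at LPS 30 min (7.54 to 7.73) lie above the control PBS arrays (7.08 to 7.18), and the high mutant values at LPS 3 h are the 2 open points.

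Slc2a4 had 2 probe sets that gave different answers. On 1415958_at, which stands for the gene, the 18 arrays lay between 10.40 and 10.81, and group means spanned 0.16. That was the narrowest span of group means among the 10 genes. On 1415959_at the mutant LPS 3 h arrays read 7.15, 10.90 and 7.14, against 10.48, 10.85 and 10.50 in mutant hearts after PBS and 10.69, 10.75 and 10.75 in control hearts at LPS 3 h. The 2 low values are the second-day arrays. The fitted change in mutant hearts at LPS 3 h was -2.22 ± 0.64 (SE; limma adjusted p = 0.0246), and without the second-day arrays it was 0.29 (limma adjusted p = 0.239).

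Hk1, the hexokinase of most tissues, split in the same way between its 2 probe sets. On 1437974_a_at, which stands for the gene, all 18 arrays lay between 9.81 and 10.32. Its values were 10.25, 10.22 and 10.12 in control hearts and 9.97, 9.999 and 9.82 in mutant hearts after PBS. These groups did not overlap, as on 20.1% of all probe sets. The difference was -0.27 ± 0.10 (SE) and missed the threshold (limma adjusted p = 0.842). On 1420901_a_at the mutant LPS 3 h arrays read 5.24, 8.58 and 5.06, and the other 15 arrays 8.07 to 8.88. The fitted change there was -1.98 ± 0.59 (SE; limma adjusted p = 0.0274), and 0.31 without the second-day arrays (limma adjusted p = 0.244). One further Hk1 probe set is shared with other genes and was left out.

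Hk2, the insulin-responsive hexokinase of muscle, had a single probe set, 1422612_at. It read 11.18, 11.28 and 11.35 in control hearts after PBS and 11.29, 11.40 and 11.26 at LPS 3 h. In mutant hearts it read 11.41, 11.32 and 11.26 after PBS and 10.02, 11.34 and 10.20 at LPS 3 h. The control groups overlapped, and in the mutant the 2 second-day arrays were low while the first-day array lay among the PBS arrays. The call in mutant hearts was a fall by 0.81 ± 0.22 (SE; limma adjusted p = 0.0197), and without the second-day arrays the difference was 0.01 (limma adjusted p = 0.986).

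**Figure D2:**
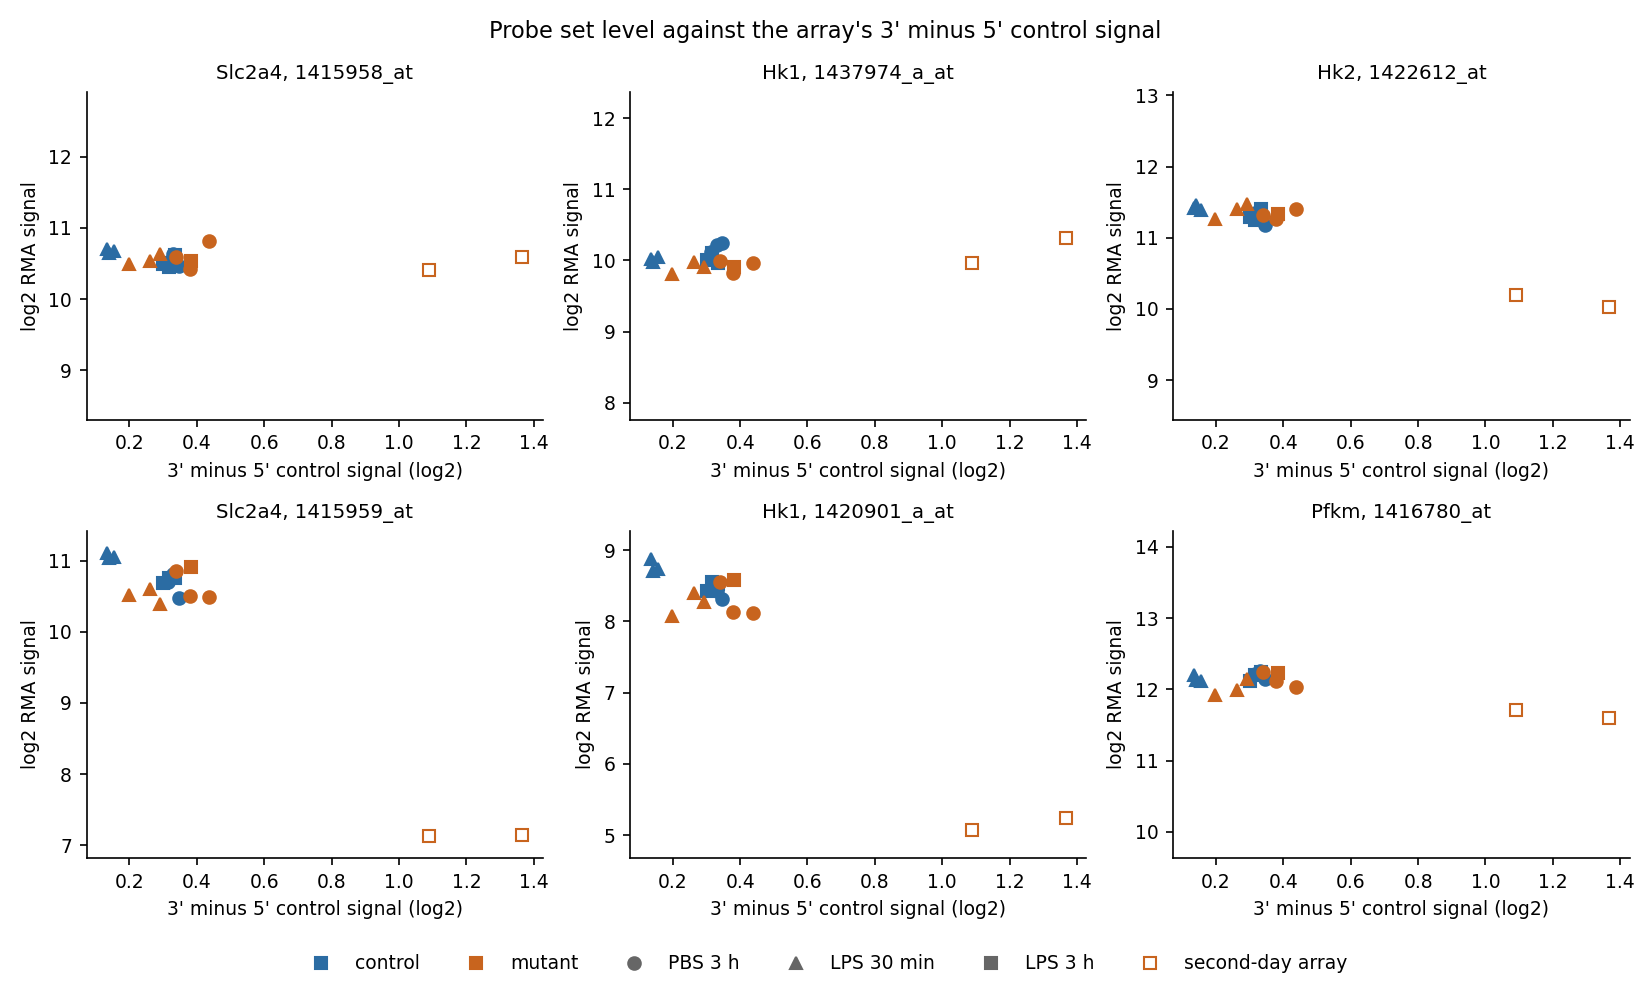
Log2 RMA signal of 6 probe sets of Slc2a4, Hk1, Hk2 and Pfkm on each array (vertical axis, all panels of equal span) against the array's 3′ minus 5′ control signal in log2 units (horizontal axis); colour gives the genotype, shape the condition, and open symbols the second-day arrays. The 2 arrays at 1.09 and 1.37 are low on Slc2a4 1415959_at and Hk1 1420901_a_at, and less so on Hk2, while the other Slc2a4 and Hk1 probe sets stay level.

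Pfkm encodes the muscle subunit of phosphofructokinase and had 1 probe set. The second-day arrays read 11.59 and 11.71, and the other 16 arrays 11.92 to 12.26. No comparison called it; the largest LPS difference was -0.28 ± 0.13 (SE) in mutant hearts at 3 h (limma adjusted p = 0.128), and 0.10 without the second-day arrays. Pfkl, the liver-type subunit, was called in no comparison either. On its probe set 1439148_a_at mutant hearts read 9.62, 9.35 and 9.43 after PBS and 9.42, 9.01 and 8.69 at LPS 30 min, groups that overlapped, with a difference of -0.43 (limma adjusted p = 0.459).

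Pfkp, the platelet-type subunit, was higher in mutant than in control hearts on probe set 1416069_at. Control hearts read 8.73, 8.68 and 8.77 after PBS, 8.56, 8.66 and 8.67 at LPS 30 min, and 8.83, 8.89 and 8.79 at LPS 3 h. Mutant hearts read 9.16, 9.16 and 9.21 after PBS, 9.18, 9.27 and 9.32 at LPS 30 min, and 9.34, 8.98 and 9.23 at LPS 3 h. All 9 mutant arrays lay above all 9 control arrays, whose highest value was 8.89 against a lowest mutant value of 8.98. Of all probe sets, 0.175% separated the genotypes without overlap, and 0.115% with the mutant higher.

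The Pfkp difference averaged over the 3 conditions was 0.47 ± 0.05 (SE; limma adjusted p = 0.00038). It was 0.45 ± 0.09 after PBS, where the adjusted p of 0.261 missed the threshold and limma called 0 of 10 members and 0.0165% of all genes. There 3 of the 22 member probe sets had an unadjusted p under 0.05, against 5.04% of all probe sets. At LPS 30 min, with all 6 arrays of 1 day and 1 lot, it was 0.63 ± 0.09 (limma adjusted p = 0.0395), the 1 of 10 member genes called against 0.0165% of all genes (0.0055% higher). This Pfkp call was lost on leaving out any 1 of the 6 arrays (limma adjusted p = 0.103 to 0.439), with quantile normalization (0.0844), with a trended robust prior (0.0589) and with the replicate block (0.0724). At LPS 3 h it was 0.34 ± 0.09 (limma adjusted p = 0.0195), and 0.14 (limma adjusted p = 0.481) with the first-day mutant array alone. Without the second-day arrays the average over conditions was 0.41 (limma adjusted p = 0.00041). The array lot that held the 3 control PBS arrays also held mutant PBS replicate 3, and there the mutant read 9.21 against 8.68 to 8.77.

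LPS did not move Pfkp past the threshold on this probe set in either genotype, with differences of 0.11 in control and 0.00 in mutant hearts at 3 h. The genotype difference of that response was -0.11 with a 95% interval of -0.38 to 0.17. The other 2 Pfkp probe sets did not show the genotype difference. Over the conditions 1430634_a_at differed by -0.28 (limma adjusted p = 0.345) and 1437759_at by -0.04 (limma adjusted p = 0.875), and with the mean of the 3 probe sets in place of 1416069_at the gene was not called. On 1430634_a_at the mutant LPS 3 h arrays read 5.19, 6.43 and 5.84 and the mutant PBS arrays 6.43, 6.87 and 6.70, a fall by 0.85 ± 0.26 (SE; limma adjusted p = 0.0323) that was -0.24 without the second-day arrays. On 1437759_at all arrays lay between 4.26 and 5.11, near the median of all probe sets.

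**Figure D3:**
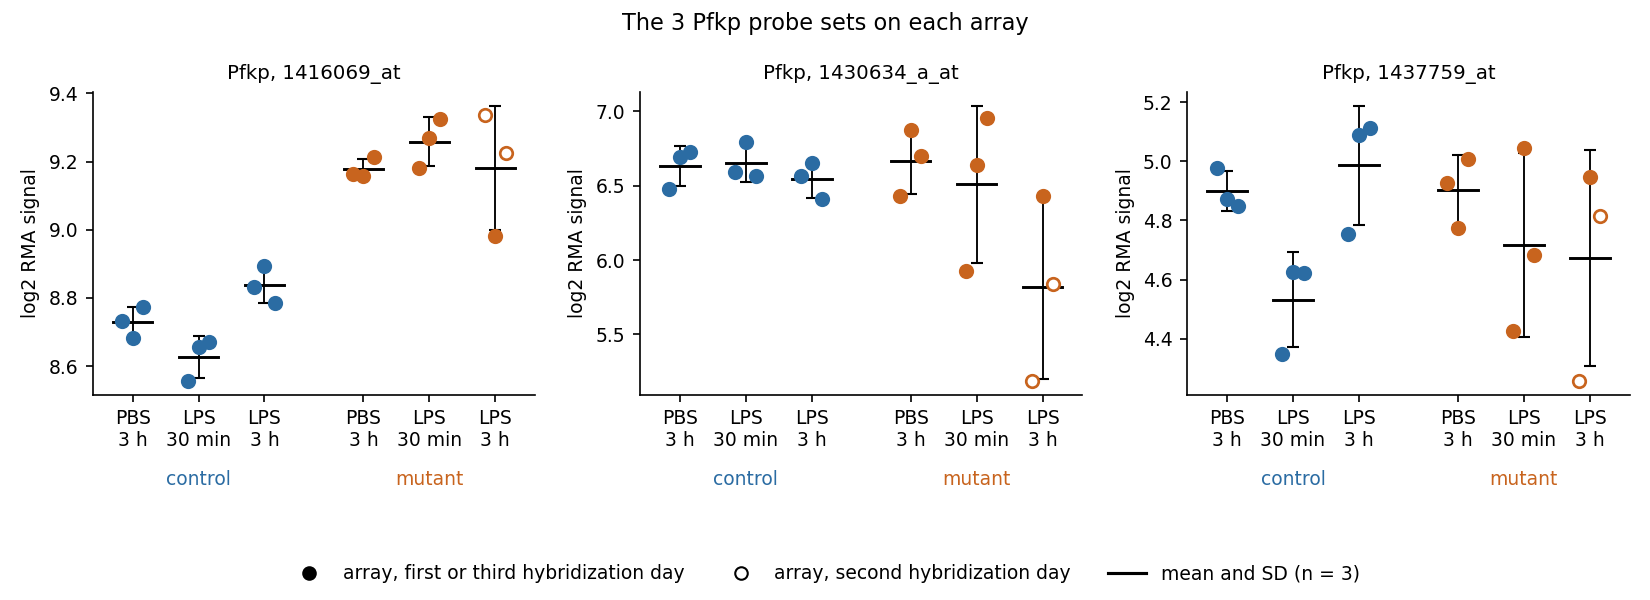
Log2 RMA signal of the 3 Pfkp probe sets on each of the 18 arrays, by genotype and condition, with lines for the mean and bars for the SD of 3 arrays; open points are second-day arrays and the vertical scale differs between panels. On 1416069_at the 9 mutant arrays (8.98 to 9.34) lie above the 9 control arrays (8.56 to 8.89), and on the other probe sets the genotypes overlap.

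Markers of other cells differed between the genotypes as well, though not all of them in every condition. The summed linear signal of the 5 measured of 7 adipocyte markers was 5155 to 7039 on the 9 control arrays and 7151 to 8594 on the 9 mutant arrays, with Cidec and Lep below the median of all probe sets. In such sums the brightest markers weigh most, so a sum may follow few genes of its list. The 5 of 5 platelet markers summed to 602 to 669 in control and 703 to 1365 in mutant hearts after PBS, to 640 to 795 and 865 to 1033 at LPS 30 min, and to 743 to 1063 and 681 to 1548 at LPS 3 h. The 6 of 6 endothelial markers summed to 2689 to 2802 in control and 3500 to 3633 in mutant hearts after PBS. At LPS 30 min they summed to 3044 to 3453 and 3575 to 4278, and at LPS 3 h to 2133 to 2913 and 1353 to 2837. The 7 of 7 skeletal muscle markers summed to 2133 to 3510 and 3753 to 7018 after PBS, with Myh4, Myh1 and Tnnt3 below that median. They summed to 1986 to 2544 and 3871 to 5487 at LPS 30 min, and to 2426 to 3283 and 2256 to 2835 at LPS 3 h. At LPS 3 h the genotypes thus overlapped on both lists. The part of these markers in the Pfkp difference was not tested.

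Pfkfb2 encodes the PFKFB form that is abundant in heart and is activated by phosphorylation downstream of insulin and adrenaline. On 1429486_at, which stands for the gene, control hearts read 8.77, 8.68 and 8.48 after PBS and 8.39, 8.15 and 8.39 at LPS 3 h. Mutant hearts read 8.64, 8.53 and 8.68 after PBS and 6.51, 7.73 and 6.33 at LPS 3 h. The LPS 3 h arrays were below the PBS arrays in both genotypes, and in the mutant the first-day array was low too, though less than the second-day arrays. A lack of overlap was seen on 19% of all probe sets in control and on 27.9% in mutant hearts. The difference in control hearts was -0.33 ± 0.24 (SE) and missed the threshold (limma adjusted p = 0.701). In mutant hearts Pfkfb2 fell by 1.76 ± 0.24 (limma adjusted p = 0.000642), and with the first-day array alone against 3 PBS arrays by 0.89 ± 0.14 (limma adjusted p = 0.00156). That fit assumes that the lone array varies like the other groups.

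The difference between genotypes in the Pfkfb2 response was -1.42 ± 0.34 (SE) and missed the threshold (limma adjusted p = 0.0855), and it was -0.55 (limma adjusted p = 0.13) without the second-day arrays. At LPS 3 h itself Pfkfb2 was lower in mutant than in control hearts, by -1.45 ± 0.24 (limma adjusted p = 0.00417), or by -0.58 (limma adjusted p = 0.0304) without these arrays. Of the other 3 Pfkfb2 probe sets, 1422090_a_at and 1422092_at read 3.12 to 4.58 on all arrays, below the median of all probe sets. The brighter 1422091_at read 5.45, 5.54 and 5.57 in control hearts after PBS and 4.74, 5.11 and 5.30 at LPS 3 h. These groups did not overlap, as on 19% of all probe sets. The difference was -0.47 and missed the threshold (limma adjusted p = 0.198). In mutant hearts that probe set gave -0.21.

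Pfkfb3 encodes the inducible form, whose kinase activity far exceeds its phosphatase activity. Its RefSeq promoter windows, 250 bases before to 50 after each of 2 transcript starts on the minus strand (build GRCm38.p6), are shown because it was the member called after LPS in both genotypes; capitals mark the hypoxia response core searched.

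Pfkfb3 upstream start, chr2:11553880-11554179: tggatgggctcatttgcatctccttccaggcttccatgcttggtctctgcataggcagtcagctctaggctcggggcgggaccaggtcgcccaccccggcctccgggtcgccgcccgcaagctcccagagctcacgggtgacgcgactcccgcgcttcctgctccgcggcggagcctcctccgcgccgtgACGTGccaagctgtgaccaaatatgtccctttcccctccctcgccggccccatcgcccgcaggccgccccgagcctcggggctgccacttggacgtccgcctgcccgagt

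Pfkfb3 downstream start, chr2:11502041-11502340: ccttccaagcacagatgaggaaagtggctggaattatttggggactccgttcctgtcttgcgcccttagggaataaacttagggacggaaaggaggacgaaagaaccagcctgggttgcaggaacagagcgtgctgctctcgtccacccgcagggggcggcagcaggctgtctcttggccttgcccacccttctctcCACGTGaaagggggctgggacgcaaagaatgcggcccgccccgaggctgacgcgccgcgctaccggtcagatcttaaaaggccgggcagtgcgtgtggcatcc

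The core, ACGTG on either strand, began at -60 from the upstream start. At the downstream start it lay on both strands in 1 overlapping run, from -53. It was present in 19.6% of 32851 RefSeq windows of this length, and in 9 of the 16 windows of 9 members, which belonged to Slc2a1, Hk1, Hk2, Pfkm, Pfkfb2 and Pfkfb3. Neither Pfkfb3 window held TTCNNNGAA (8.3% of all windows), a GAAA repeated after any 2 bases (3.44%) or the NF-kB motif (8.46%), each read on both strands. A match of letters is a description and no evidence of binding, and no match says only that these letters are not in the window.

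On 1416432_at, which stands for the gene, Pfkfb3 read 4.85, 4.60 and 4.60 in control hearts after PBS, 5.03, 5.09 and 5.04 at LPS 30 min, and 8.39, 7.67 and 5.77 at LPS 3 h. In mutant hearts it read 4.80, 4.51 and 4.93 after PBS, 5.51, 5.01 and 4.95 at LPS 30 min, and 7.09, 7.58 and 8.36 at LPS 3 h. All 6 LPS 3 h arrays lay above all 12 others, and the control arrays at 3 h were spread more widely than those of any other group. The share of all probe sets that separate these 6 arrays from the 12 was not computed. LPS 3 h and PBS arrays did not overlap on 19% of all probe sets in control and 27.9% in mutant hearts. The values after PBS lie near the median of all probe sets, where RMA compresses differences.

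The Pfkfb3 change at LPS 3 h was 2.60 ± 0.46 (SE; limma adjusted p = 0.0173) in control hearts, all of 1 hybridization day. It was 2.93 ± 0.46 (limma adjusted p = 0.00128) in mutant hearts. Without the second-day arrays, which leaves 1 mutant LPS 3 h array, it was 2.84. On first-day arrays only the mutant change was also 2.84, and the call was lost. The difference between genotypes was 0.34, with a 95% interval of -1.03 to 1.70 (limma adjusted p = 0.782). At LPS 30 min the differences were 0.37 in control and 0.41 in mutant hearts, with limma adjusted p = 0.924 and 0.963. The LPS comparisons of a genotype share its PBS arrays.

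The control call of Pfkfb3 depends on single arrays. It was lost, with adjusted p from 0.0603 to 0.095 and changes from 2.04 to 2.68, on leaving out any 1 of control PBS replicates 1, 2 and 3 or of control LPS 3 h replicates 1 and 2. Without control LPS 3 h replicate 3, which read 5.77, it was 3.35 (limma adjusted p = 2.29e-05), and array weights gave 1.56 (limma adjusted p = 0.0124). In neither genotype did an array lot hold both PBS and LPS 3 h arrays, so lot and treatment cannot be told apart in either. With lot as a random block the control change was 2.70 (limma adjusted p = 0.392) and the mutant change 2.90 (limma adjusted p = 0.0246).

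The second Pfkfb3 probe set, 1456676_a_at, read 4.75, 4.57 and 4.40 in control hearts after PBS and 4.74, 5.43 and 5.08 at LPS 3 h, groups that overlapped by 1 array. In mutant hearts it read 4.55, 4.70 and 4.78 after PBS and 4.80, 5.45 and 5.85 at LPS 3 h, without overlap, as on 27.9% of all probe sets. The difference was 0.51 (limma adjusted p = 0.399) in control hearts, and in mutant hearts it rose by 0.69 ± 0.21 (limma adjusted p = 0.0321). That Pfkfb3 call was kept without the second-day arrays (0.77, limma adjusted p = 0.0305). It was lost with array weights, with day or lot as a random block, on first-day arrays only and with only the groups compared (limma adjusted p = 0.0682 to 0.224), and without any 1 of the mutant PBS arrays (limma adjusted p = 0.0657 to 0.0967). Without mutant LPS 3 h replicate 3 the change was 0.45 (limma adjusted p = 0.178).

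Pfkfb4 encodes a form known from testis and from hypoxic cells, and its probe set 1456888_at read 6.30, 6.34 and 6.30 in control hearts after PBS and 6.04, 5.77 and 6.19 at LPS 3 h. In mutant hearts it read 6.21, 6.08 and 6.01 after PBS and 6.15, 6.39 and 6.36 at LPS 3 h. The control groups did not overlap, as on 19% of all probe sets, and the mutant groups did. The differences, -0.32 in control (limma adjusted p = 0.283) and 0.19 in mutant hearts, missed the threshold, as did the difference between them of 0.51 ± 0.16 (SE; limma adjusted p = 0.115).

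**Figure D4:**
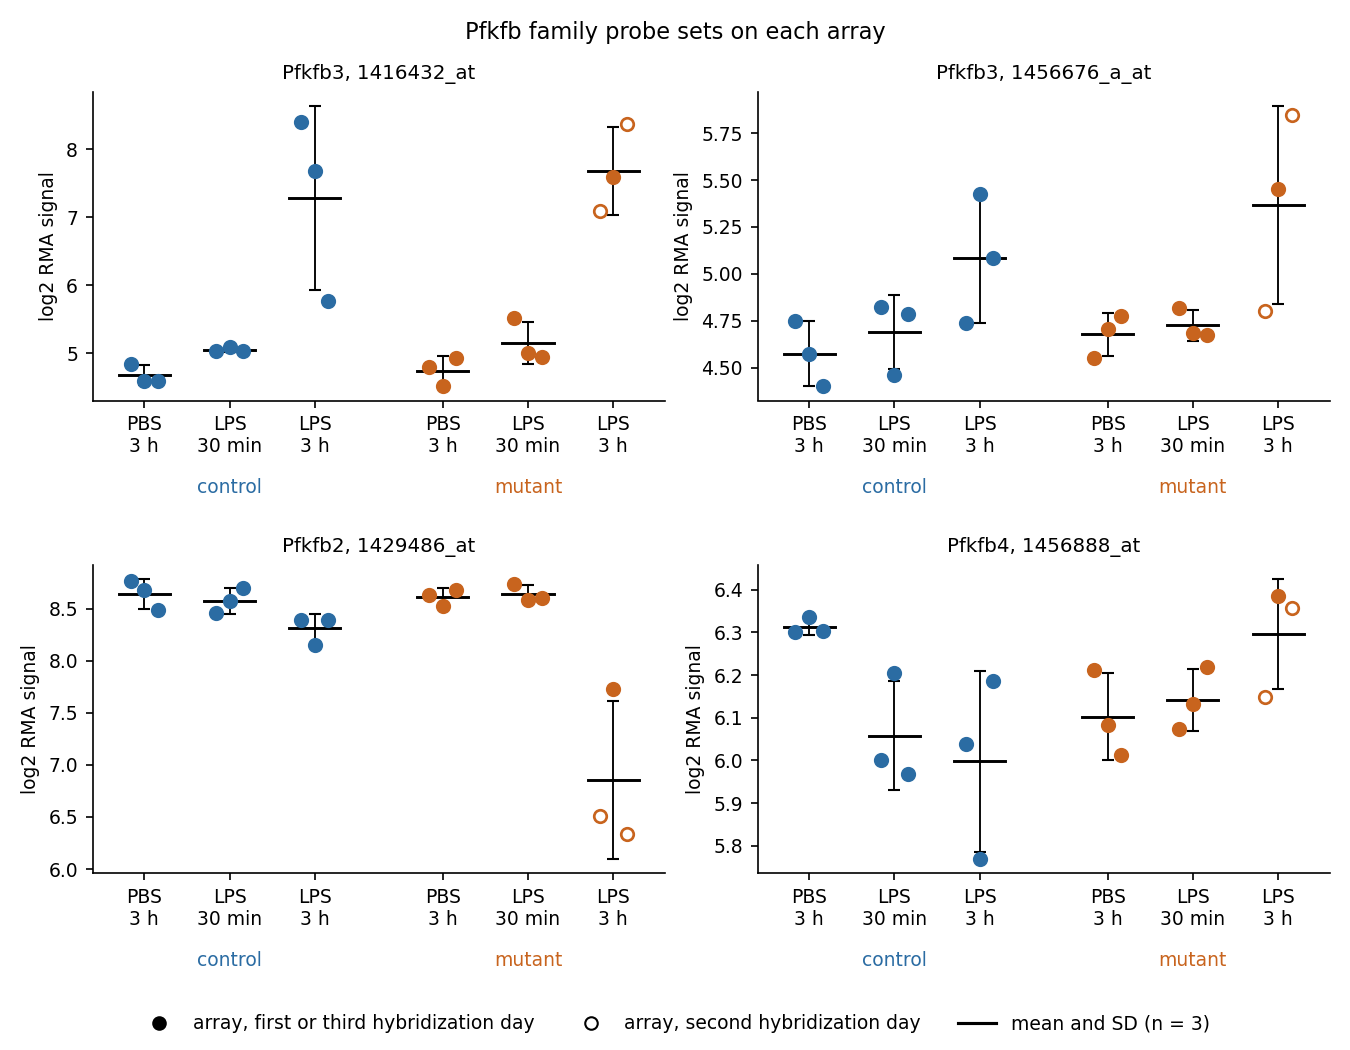
Log2 RMA signal of both Pfkfb3 probe sets, of Pfkfb2 1429486_at and of Pfkfb4 on each of the 18 arrays, by genotype and condition, with lines for the mean and bars for the SD of 3 arrays; open points are second-day arrays and the vertical scale differs between panels. Pfkfb3 1416432_at lies at 5.77 to 8.39 in both LPS 3 h groups and at 4.51 to 5.51 elsewhere, and Pfkfb2 is lowest on the 3 mutant LPS 3 h arrays, most on the open points.

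Among markers of blood cells, the neutrophil sums were higher at LPS 3 h in both genotypes. The 6 measured of 8 neutrophil markers summed to 150 to 390 in control hearts after PBS and to 489 to 850 at LPS 3 h, and to 234 to 559 and 785 to 4901 in mutant hearts. Of these, Mpo, Elane and Cxcr2 lay below the median of all probe sets by their mean over the 18 arrays. The 7 of 7 macrophage and monocyte markers summed to 2752 to 3404 after PBS and 3239 to 3694 at LPS 3 h in control hearts, with Ccr2 below that median. In mutant hearts they summed to 3248 to 3843 after PBS and 3105 to 3854 at LPS 3 h. These ranges overlapped in both genotypes. In the mutant LPS 3 h group the 8 cardiomyocyte markers summed to 97279 to 99268, against 104760 to 111431 in all other groups. The 5 lung markers summed to 169 to 1132 in that group, against 125 to 187 in all others. The highest lung sum, 1132, was on the first-day array, which alone stands for this group when the second-day arrays are left out. In mutant hearts at LPS 3 h, 6 of 6 endothelial markers were called lower (median -1.06) and 3 of 6 fibroblast markers (median -0.46). Of all genes, 16.1% were called lower in this comparison. The endothelial markers summed to 3500 to 3633 after PBS and to 1353 to 2837 at LPS 3 h, the highest being the first-day array. Without the second-day arrays, which leaves that array alone in the group, their median was -0.44. The fibroblast markers summed to 13650 to 15194 after PBS and 8093 to 13083 at LPS 3 h, the highest again being the first-day array. The part of these markers in the Pfkfb3, Pfkfb2 and Hk2 results was not tested.

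Over the 22 probe sets, the LPS 3 h comparison in control hearts called 1, against 0.5% of all probe sets, and the median log2 difference was -0.02, as over all probe sets. In mutant hearts it called 8 of 22, 3 higher and 5 lower, against 21.1% of all probe sets (7.99% higher and 13.1% lower). Apart from Pfkfb3 and Pfkfb2, each of those 8 lost its call without the second-day arrays, and these were Slc2a1 1426599_a_at, Slc2a4 1415959_at, Hk1 1420901_a_at, Hk2 1422612_at and Pfkp 1430634_a_at. Between genotypes at LPS 3 h, 3 of 10 genes were called, against 23% of all genes (9.75% higher and 13.2% lower), namely Pfkp higher and Hk2 and Pfkfb2 lower in the mutant. Without the second-day arrays Hk2 differed by 0.02 (limma adjusted p = 0.951) and Pfkp by 0.14 (limma adjusted p = 0.481), and only Pfkfb2 of these 3 kept its call. None of the 10 genes was called by limma for the genotype difference of the LPS 3 h response, where 0.159% of all genes were, and 5 of the 22 probe sets had an unadjusted p under 0.05, against 22.2% of all probe sets.

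**Figure D5:**
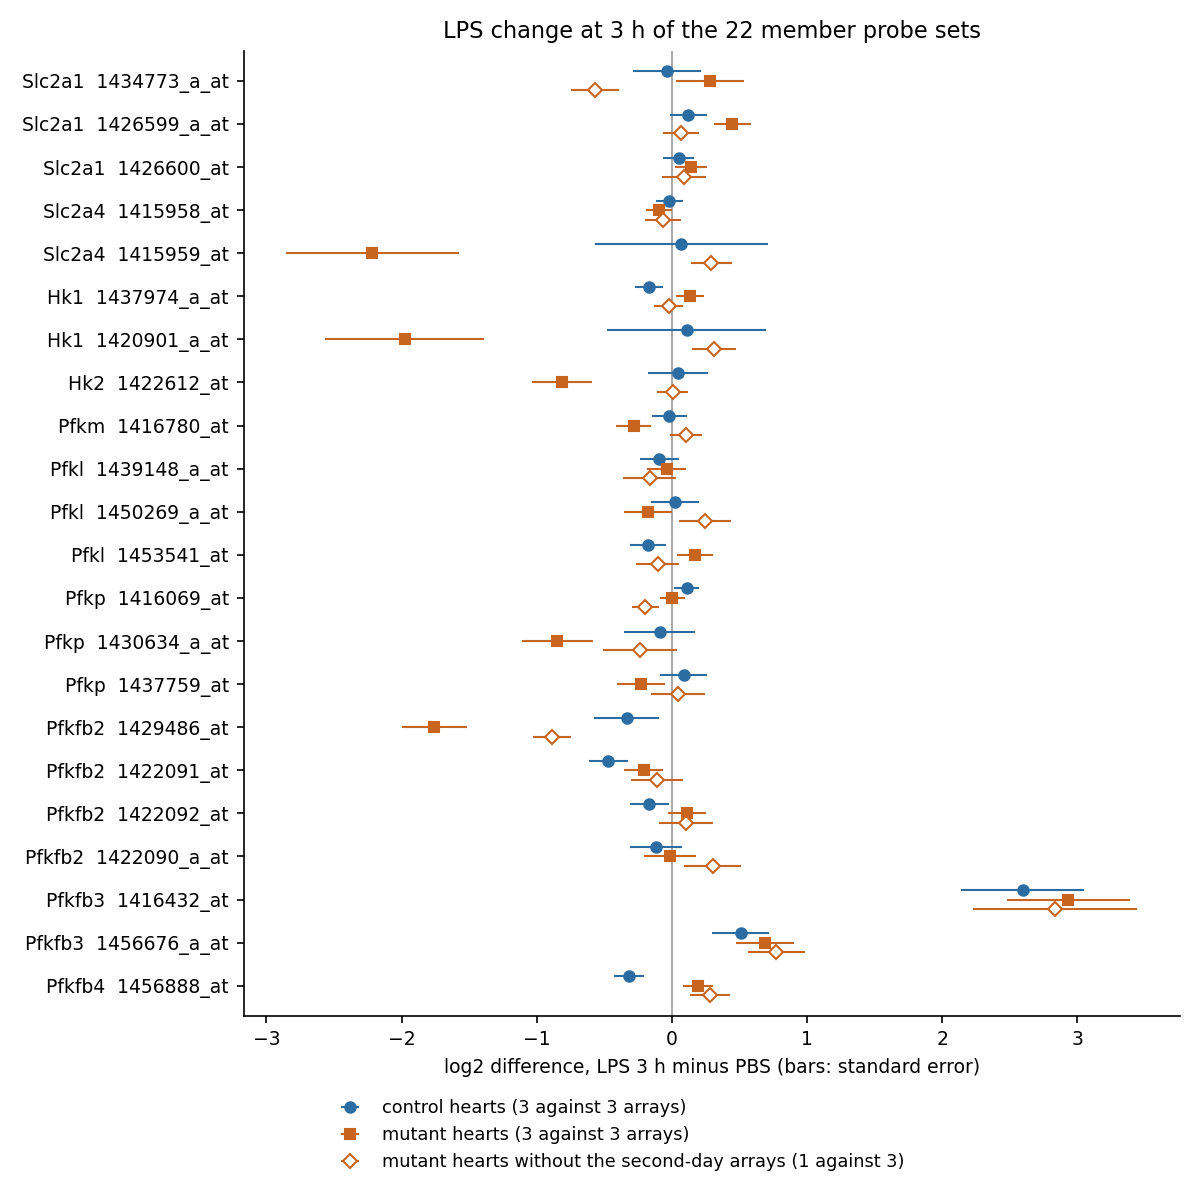
Log2 difference between LPS 3 h and PBS, with the standard error, for the 22 member probe sets in control hearts (blue circles), in mutant hearts (orange squares) and in mutant hearts without the second-day arrays (open diamonds). Pfkfb3 1416432_at is far to the right in all 3 (2.60, 2.93 and 2.84), Pfkfb2 1429486_at stays left of 0 in all 3, and Slc2a4 1415959_at, Hk1 1420901_a_at and Hk2 are left of 0 in the mutant fit on all arrays and not in the other 2.

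At LPS 30 min limma called 0 of the 10 genes in control hearts, against 0.0934% of all genes, and 0 in mutant hearts, against 0.0275%. In each genotype 2 of the 22 probe sets had an unadjusted p under 0.05, against 8.21% of all probe sets in control and 6.71% in mutant hearts. The control LPS 30 min and PBS arrays did not overlap on 13 of the 22 probe sets, against 29.1% of all probe sets, and the mutant arrays on 2, against 24.8%. Both comparisons lie across hybridization days. The genotype difference of the LPS 30 min response called 0 of 10 genes and 0% of all genes, with 1 probe set at an unadjusted p under 0.05, against 1.96% of all probe sets.

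The wider pathway was read from 5 lists. In control hearts at LPS 3 h, where 0.775% of all genes were called, limma called 0 of the measured genes of these lists, a count near that share. They were 8 of 10 other transporters, hexokinases and bisphosphatases, 9 of 12 genes of lower glycolysis, 12 of 13 of lactate and pyruvate, 11 of 12 of glycogen and 20 of 20 regulators. The nearest were Arrdc4 and Txnip, arrestin-family proteins that restrain glucose uptake. Txnip read 10.50, 10.55 and 10.63 in control hearts after PBS and 11.52, 11.55 and 11.54 at LPS 3 h. A gap between the arrays of these groups was seen on 19% of all probe sets. These groups did not overlap, the difference was 0.98 ± 0.22 (SE; limma adjusted p = 0.0705), and the adjusted p was 0.00178 without the second-day arrays, which belong to neither group. Arrdc4 read 6.20, 5.94 and 5.91 after PBS and 8.61, 8.01 and 6.36 at LPS 3 h, a difference of 1.64 ± 0.41 (SE; limma adjusted p = 0.0935, or 0.0279 without the second-day arrays). The hexokinase-domain gene Hkdc1 differed by -0.46 (limma adjusted p = 0.241, or 0.0324 without these arrays). In mutant hearts Txnip was 11.57, 11.35 and 10.95 after PBS and 10.68, 11.76 and 10.67 at LPS 3 h, and the genotype difference of the response was -1.23 (limma adjusted p = 0.0941), or -0.50 (limma adjusted p = 0.315) without the second-day arrays.

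In mutant hearts at LPS 3 h, where 9.9% of all genes were called higher and 16.1% lower, 1 of the 8 other transporters and hexokinases rose, Slc2a6, by 0.44. In lower glycolysis 3 of 9 fell, the mutase Pgam1 by 0.89, the muscle enolase Eno3 by 0.32 and the aldolase Aldoa by 0.30. Of the lactate and pyruvate genes 4 of 12 fell and 1 rose. They included the monocarboxylate transporter Slc16a1, which fell by 1.23, the pyruvate dehydrogenase phosphatase Pdp1, which fell by 1.22, and the lactate exporter Slc16a3, which rose by 0.50. Of the glycogen genes 6 of 11 fell, among them the branching enzyme Gbe1 by 1.20 and the phosphorylase kinase subunit Phka1 by 0.87. Of the regulators 9 of 20 fell and 2 rose, and they included the GLUT4 traffic regulator Tbc1d4, which fell by 1.29, and the insulin receptor substrates Irs1, which fell by 1.002, and Irs2, which rose by 0.97.

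The median log2 changes of the 5 lists in mutant hearts, in the order above, were 0.13, -0.30, -0.22, -0.31 and -0.28, against 0.07 over all genes. Without the second-day arrays fewer genes of these lists were called. That fit has 1 mutant LPS 3 h array, and its share of calls over all genes is not given here. Pdp1 was lower in that fit, by -0.87, as was Phkb, a phosphorylase kinase subunit, by -0.44. Mef2c, a transcription factor that drives Slc2a4 in muscle, fell there by 0.41. Between genotypes over the 3 conditions, Phka1 was lower in the mutant by -0.40 (limma adjusted p = 0.0211) and Tbc1d4 by -0.69 (limma adjusted p = 0.0482). On the 16 arrays without the second day these were -0.29 (limma adjusted p = 0.0571) and -0.38 (limma adjusted p = 0.0343). After PBS and at LPS 30 min limma called 0 of the genes of these lists between genotypes, and 0.0165% of all genes in each comparison, so these counts say nothing particular about the lists.

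Pfkfb3 had the widest span of group means among the 10 genes, 3.00, and Pfkfb2 the next, 1.79. The genes whose log2 signal followed Pfkfb3 most closely over the 18 arrays were Slfn8 (Pearson r = 0.976), the endothelial and platelet adhesion receptor Selp (r = 0.975), the interferon-induced Ifit1 (r = 0.974), Slfn2 (r = 0.972) and the leukocyte adhesion ligand Icam1 (r = 0.972). Over the 16 arrays without the second day the same 5 gave 0.966 to 0.977. These correlations are a description over arrays that share the LPS groups and carry no p.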

How the data were processed

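Heart RNA was hybridized to 18 single-colour Affymetrix arrays. The authors deposited log2 values made with RMA, per the submitters' processing notes. RMA removes background, equalises the arrays and reduces the probes to 1 value for each probe set. Its version and settings were not given in the sources used here. Array medians of these log2 values ran from 4.71 to 4.97. Other fields used are text fields of the deposited experiment files, which give the hybridization day and array lot. No value column belonged to another sample, and the number of arrays limits the precision.

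The table held 45101 probe sets, of which 64 were Affymetrix control probe sets and were not tested. The platform annotation gave 1 symbol to 34945 of the other 45037, several to 932 and none to 9160. Of the single symbols, 34741 were found in the gene table by Entrez identifier, and 0 were changed.

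The 6 group means were estimated together from the 18 arrays by limma 3.58.1 in R 4.3.3 (12 residual and 3.83 prior degrees of freedom). P-values were adjusted by Benjamini-Hochberg over all 45037 probe sets within a contrast, with a threshold of 0.05. The fitting code was tested on simulated data. Alternatives were 2 array scalings, array weights, day and lot as random blocks, single days, only the groups compared, a filter on dim probe sets, a trended robust prior, a replicate block, the mean of a gene's probe sets, and each array left out. Lot as a block was chosen after seeing the data. The text names all members. From each pathway list it names up to 4 genes past the threshold per contrast, or the 2 with the smallest p, and it gives the 5 genes most correlated with the member of widest span. Hkdc1 was also named for its value in an alternative. The members and lists were chosen with earlier results of these data known. Promoter sequences are from RefSeq, GRCm38.p6, which had windows for 9 of the 10 members.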

Additional observations from a re-analysis of the deposited data

How the results depend on the processing

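Member genes called, of 10, changed as follows. For LPS 3 h in control hearts the count of 1 became 0 on first-day arrays only, with lot as a random block and with only the groups compared, and was 0 to 1 with an array left out. For LPS 3 h in mutant hearts 3 became 2 without the second-day arrays and with day or lot as a random block, 1 on first-day arrays only and with only the groups compared, 5 with the mean of a gene's probe sets, and 2 to 5 with an array left out, 5 being without mutant LPS 3 h replicate 2. For LPS 30 min the count of 0 became 1 with array weights in either genotype, and 2 in control hearts with only the groups compared. For genotype after PBS 0 became 1, Pfkp, with array weights, without the second-day arrays and with only the groups compared. For genotype at LPS 30 min 1 became 0 with quantile normalization, a trended robust prior, the replicate block and the mean of probe sets, and 0 to 0 with an array left out, where the Pfkp difference was 0.59 to 0.67 (limma adjusted p = 0.103 to 0.439). For genotype at LPS 3 h 3 became 1 without the second-day arrays and with day or lot as a random block, 0 on first-day arrays only and with only the groups compared, 5 with the mean of probe sets, and 1 to 5 with an array left out (1 without control replicate 1 or mutant replicate 3, 5 without mutant replicate 2). There the Pfkp call was lost without control LPS 3 h replicates 1 or 3 or mutant LPS 3 h replicates 1 or 3 (limma adjusted p = 0.0536 to 0.0781) and with each array centred on its median (0.0856). Over the conditions 1 became 4 with array weights, 0 with the mean of probe sets, and 1 to 4 with an array left out, 4 without mutant LPS 3 h replicate 2. For the genotype difference of the LPS 3 h response 0 became 2 with array weights, and 0 to 5 with an array left out, 5 without that replicate. Why these counts moved was not tested.

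Without the second-day arrays, and on first-day arrays only, the same signs turned. In mutant hearts at LPS 3 h the values were 0.29 for Slc2a4 1415959_at, 0.31 for Hk1 1420901_a_at, 0.0058 for Hk2 and 0.10 for Pfkm. Between genotypes at LPS 3 h they were 0.18, 0.080, 0.020 and 0.042 in the same order, and for the genotype difference of the response 0.22 for Slc2a4 and 0.20 for Hk1. Of the 16 single results past the threshold, with 282 values under alternatives, 167 kept their direction and call, 103 kept the direction and lost the call, and 12 reversed. Pfkp over the conditions kept its call in every single-probe-set alternative run, at 0.41 to 0.51. In mutant hearts Hk2, Hk1 1420901_a_at and Slc2a4 1415959_at each lost the call with any 1 of the 6 arrays compared left out, other than mutant LPS 3 h replicate 2.

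Whether replicate numbers pair the samples is not stated in the sources used here. In no comparison did all 3 same-number correlations of deviations from the group means pass 0.1. They ran from -0.13 to 0.36, and with 3 arrays a group this check cannot exclude pairing. The replicate block ended the Pfkp call at LPS 30 min (0.63, limma adjusted p = 0.0724) and no other count of member genes changed under it. Over all probe sets, calls for LPS 3 h in control hearts numbered 225 and ran from 6 to 2469 over the alternatives. In mutant hearts they numbered 9522 and ran from 66 to 14773, for LPS 30 min 64 (1 to 4221) and 22 (0 to 2627), and for genotype after PBS 4 (1 to 736). At LPS 30 min they numbered 4 (1 to 1156), at LPS 3 h 8309 (1 to 14775), over the conditions 1055 (415 to 8904), and for the 2 response differences 47 (1 to 10621) and 0 (0 to 13). The share of higher calls moved with array centring from 72.4% to 90.6% for LPS 3 h in control hearts, from 37.8% to 26.3% in mutant hearts, and from 43.2% to 21.8% between genotypes at LPS 3 h. It moved from 31.2% to 45.5% and from 22.7% to 33.3% for LPS 30 min, and from 53.2% to 20% for the 3 h response difference. Quantile normalization moved the last to 72.3%, the mutant LPS shares to 48.1% at 3 h and 50% at 30 min, and the genotype share at LPS 30 min from 50% to 25%, which centring moved to 66.7%. Without the second-day arrays the genotype share at LPS 3 h was 64.9% and that of the 3 h response difference 66.5%.

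With 3 arrays a group, differences within the printed intervals were not detectable, and dim probe sets understate theirs. In the mutant LPS 3 h group 1 of 3 arrays lacked the raised 3′ over 5′ signal, and against PBS the effects of LPS 30 min, day and lot cannot be told apart.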

Other observations

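Between genotypes at LPS 3 h limma called 13.2% of all genes lower and 9.75% higher. The calls in the pathway lists were 0 of 8 for the other transporters, hexokinases and bisphosphatases, 2 of 9 genes of lower glycolysis lower, 5 of 12 of lactate and pyruvate lower and 1 higher, 5 of 11 of glycogen lower, and 5 of 20 regulators lower and 1 higher. Among them Tbc1d4 was lower by -1.55 (limma adjusted p = 0.00717), Gbe1 by -1.15 (limma adjusted p = 0.0095) and Phka1 by -0.91 (limma adjusted p = 0.00353). Irs2 was higher by 1.07 (limma adjusted p = 0.0115). Without the second-day arrays the same comparison called 2 genes of these lists, both of glycogen and both higher.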
